A study of Canis lupus familiaris with 8 samples.

Results

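The SLC25 family is the set of carrier proteins that move metabolites across the inner mitochondrial membrane. All rows of the deposited tables whose gene symbol begins with SLC25A and a digit were taken, which gave 47 genes of 35048 rows, and no symbol was repeated among them. The RNA came from peripheral blood mononuclear cells (lymphocytes and monocytes) of 5 obese and 3 normal dogs. The obese dogs were a Dachshund (dog 1), a Chihuahua (dog 2), 2 Labrador retrievers (dogs 3 and 4) and a Welsh Corgi (dog 5), and the normal dogs were 3 Beagles. Body condition and breed therefore cannot be told apart in any comparison here. The labels give no age, treatment or sampling day for either group, and each library stands for a separate dog.

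The inner mitochondrial membrane is closed to most charged molecules, and SLC25 carriers are the proteins that let nucleotides, phosphate, organic acids, amino acids, acylcarnitines and cofactors across it. Most of them exchange one substrate for another, so that import of ADP, for example, is tied to export of ATP. In blood cells the family serves the energy supply of lymphocytes and monocytes, and several members bring iron and glycine into the mitochondria of developing red cells for heme synthesis.

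Sequencing was of 3′ tags, so that a transcript gives a read near its poly(A) end whatever its length. A level is given as CPM, the read count of a gene scaled to a common library size. Levels of different genes are set side by side without a correction for length. They also depend on how well the 3′ end of each gene is annotated and mapped. The gene models used are not given, so an order or share among genes is one of counted reads, not of measured transcript numbers. Library totals ran from 10264202 to 14910982 counts, and 14191 to 36980 counts of a library belonged to the family. Obese dog 3 stood apart: its erythroid markers summed to 1208 CPM against 52.0 to 105 CPM in the other obese dogs, and its neutrophil markers to 7191 against 247 to 1001 CPM. The normal dogs had 1727 to 7020 CPM of neutrophil markers, of which S100A8, S100A9 and S100A12, also expressed by monocytes, gave most of the counts. The marker CSF3R had 34.5, 25.1, 423, 34.1 and 29.2 CPM among obese dogs and 140, 362 and 293 CPM among normal dogs. The neutrophil receptor CXCR2 had only 88 counts in all. Its levels were 0, 0.198, 5.33, 0.335 and 0 CPM among obese dogs and 0, 2.21 and 0.765 CPM among normal dogs. MMP8, CAMP and LTF were higher in obese dog 1 (7.49, 126 and 156 CPM) than in obese dog 3 (1.70, 12.8 and 121 CPM). T cell markers summed to 449 to 1239 CPM among obese dogs and 277 to 374 CPM among normal dogs, plasma cell markers to 137 to 258 against 320 to 1143 CPM, and platelet markers to 74.7 to 1541 against 10.6 to 36.4 CPM. Monocyte markers summed to 739 to 1367 CPM among obese dogs and 1412 to 2608 CPM among normal dogs. VCAN gave much of that sum, with 201 to 851 CPM among obese dogs and 920 to 2191 CPM among normal dogs. Of the 7 monocyte markers tested, 5 had a positive and 2 a negative log2 fold change. Markers of dividing cells summed to 72.9 to 235 against 306 to 502 CPM. In bulk samples like these, fewer cells of a type and less RNA per cell cannot be told apart.

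Of the 47 carriers, 43 had enough counts to be tested between obese and normal dogs. The exceptions were SLC25A2, with 0 counts in every library, where 3 counts, the limit set here for a count of 0, stand for 0.167 to 0.340 CPM, and SLC25A45, SLC25A47 and SLC25A34, with 5, 11 and 45 counts in all. These 4 carriers fell below the filter on low counts and were not tested. The family as a whole gave 1609 to 2062 CPM in the obese dogs and 1552 to 1733 CPM among normal dogs, so the group ranges overlapped. Its mean was 1843 ± 175 CPM (SD, n = 5) in the obese and 1627 ± 94.6 CPM (SD, n = 3) in the normal dogs. Without SLC25A6 the sums were 1176 ± 99.2 and 1248 ± 110 CPM (SD, same dogs).

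SLC25A6, an ADP/ATP carrier, was the most abundant member and gave 31.7% of the family's mean CPM. SLC25A12, an aspartate/glutamate carrier, followed with a mean of 150 CPM over the 8 dogs, then the pyrimidine nucleotide carriers SLC25A33 and SLC25A36 with 98.7 and 94.6 CPM, and the iron carrier SLC25A37 with 87.0 CPM. The spread of each of these last 3 between dogs was wider than the gap between neighbours, so their order is not fixed. The 14 most abundant members held 80.7% of the family's CPM. The share of SLC25A6 in the family's counts was 38.6, 39.8, 18.6, 40.0 and 41.0% in obese dogs 1 to 5 and 30.6, 13.9 and 24.8% in normal dogs 1 to 3. Obese dog 3 lay among the normal dogs in this share, and the other obese dogs lay above them.

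**Figure D1:**
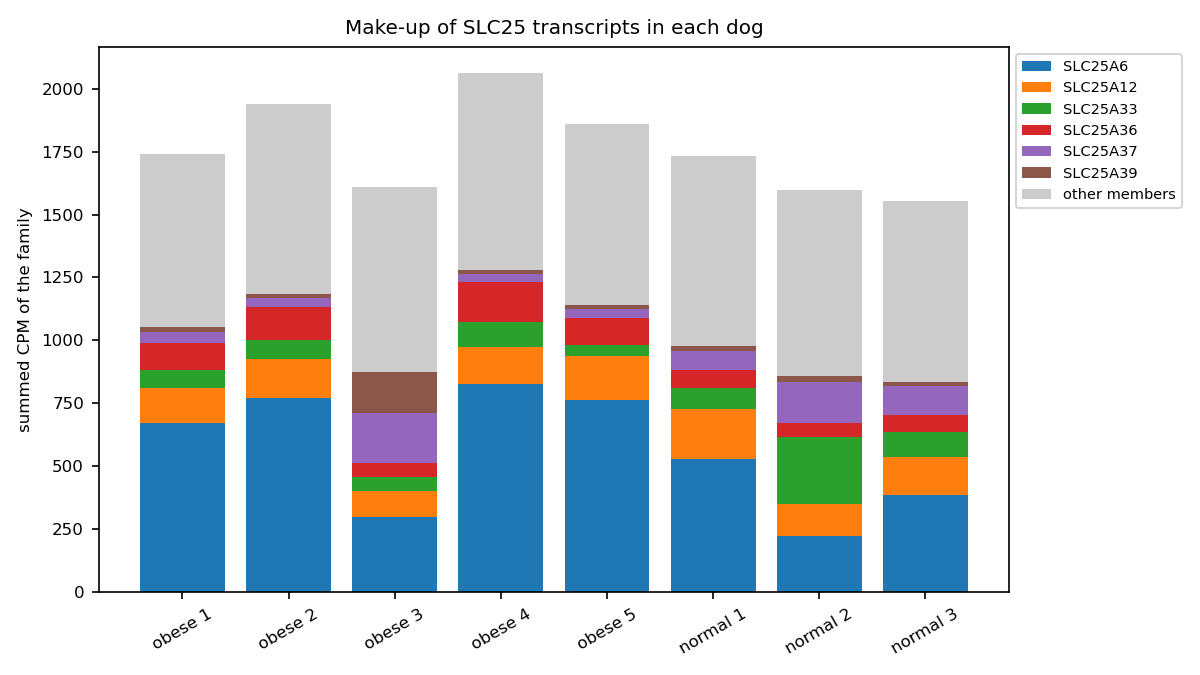
Summed CPM of the SLC25 family in each dog, split into 6 carriers and all other members. SLC25A6 gave 299 CPM in obese dog 3 and 673 to 826 CPM in the other obese dogs, and SLC25A37 with SLC25A39 took a larger part in obese dog 3 than in those 4 dogs.

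No carrier passed an adjusted p of 0.05 in edgeR's quasi-likelihood test, where 0.233% of all 20632 genes did (0.0485% as higher and 0.184% as lower in the obese dogs). At an unadjusted p under 0.05 there were 6 carriers with higher and 4 with lower levels in the obese dogs, 23.3% of the 43 tested beside 15.7% of all genes (9.01% higher and 6.73% lower). In 4 carriers (9.30%) the dogs of the groups did not overlap, 2 above and 2 below, against 10.9% of all genes (5.75% above and 5.16% below), so the family's share was near the background. The fitted values went both ways, 24 positive and 19 negative, with a median log2 fold change of 0.07 beside 0.09 for all genes tested. DESeq2 called 1 carrier, SLC25A40, as higher, with 2.9% of all genes higher and 2.07% lower. limma-voom with library quality weights called 5 carriers higher and 4 lower, in a fit that called 9.12% of all genes higher and 9.9% lower.

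The count by edgeR depended on obese dog 3. Without that library, SLC25A40, SLC25A30 and SLC25A36 were higher and SLC25A37 and SLC25A29 lower in the obese dogs at an adjusted p under 0.05 (edgeR), in a fit where 3.25% of all genes passed as higher and 5.03% as lower. Leaving out any other single dog gave 0 carriers in either direction, with 2 to 8 carriers (4.65% to 18.6%) at an unadjusted p under 0.05 beside 8.16% to 14.7% of all genes in those fits. Over the 17 alternatives the adjusted p ran from 0.0212 to 0.796 for SLC25A36, 0.0378 to 0.736 for SLC25A30 and 0.0222 to 0.806 for SLC25A6. It ran from 0.00691 to 0.897 for SLC25A37, 0.0410 to 0.827 for SLC25A29 and 0.133 to 0.764 for SLC25A33. DESeq2 gave no adjusted p for SLC25A27 and SLC25A39, and over the other 16 alternatives it ran from 0.1001 to 0.610 for SLC25A27 and from 0.492 to 0.991 for SLC25A39.

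**Figure D2:**
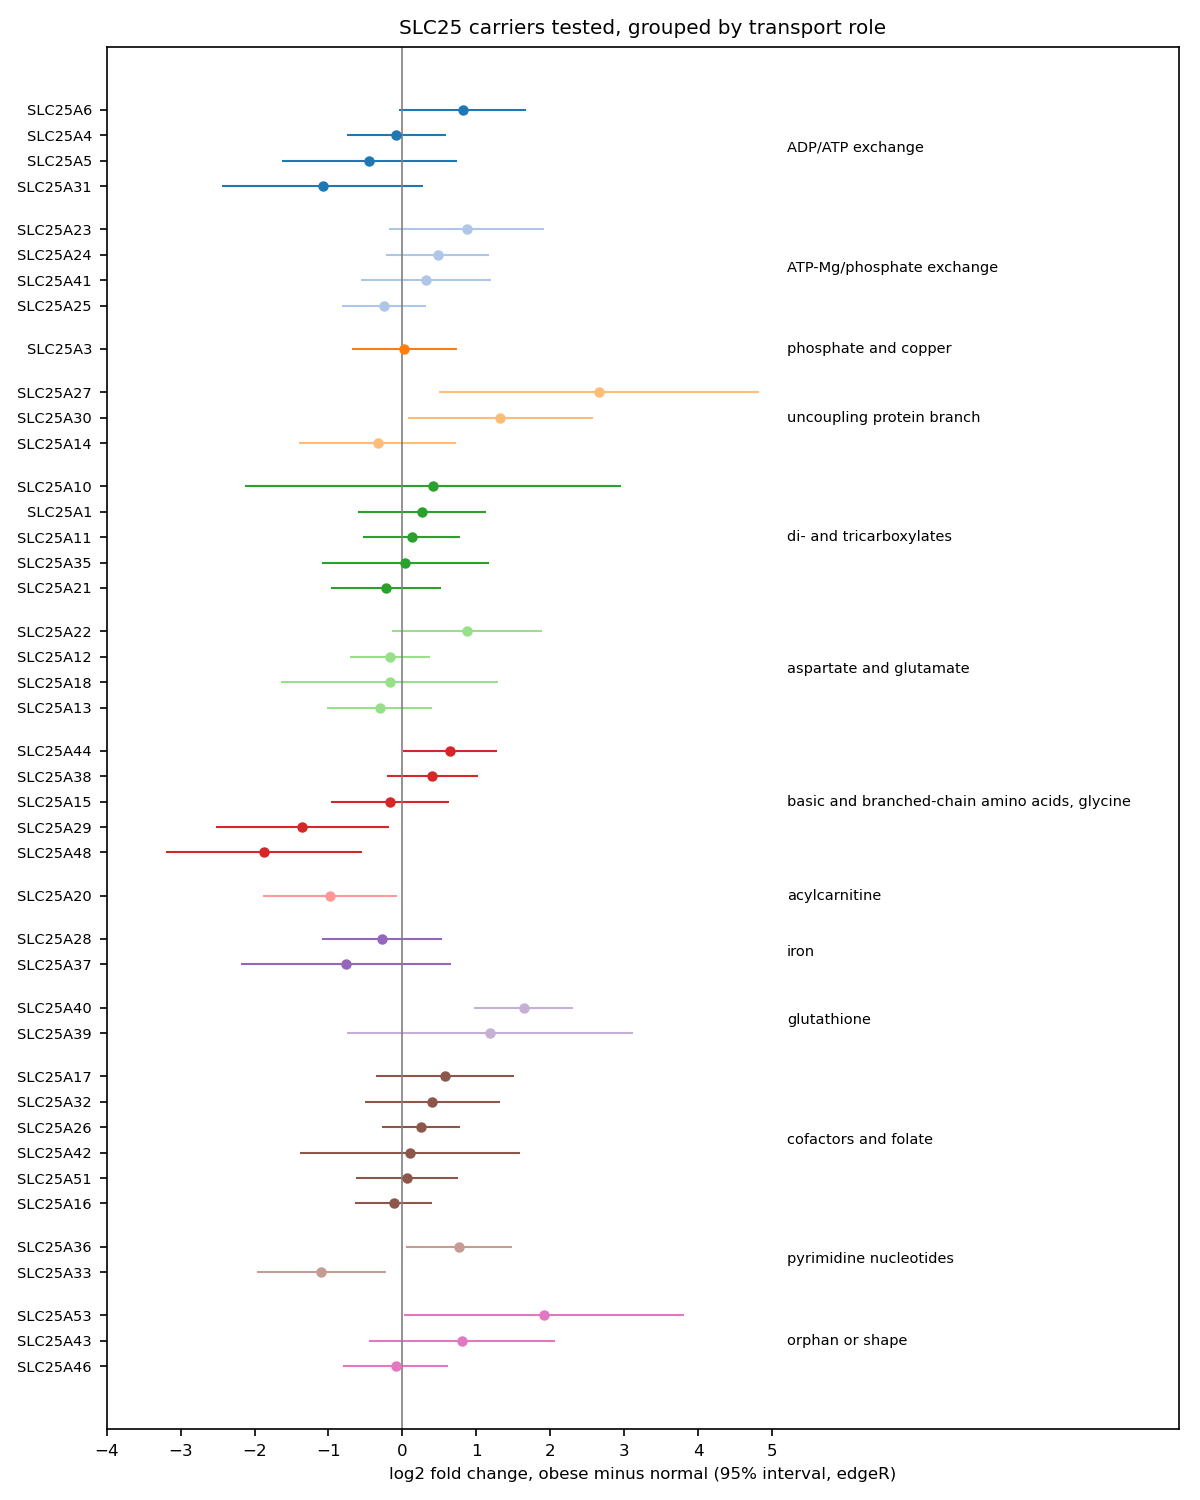
Log2 fold change (obese minus normal) of 42 of the 43 carriers tested, with 95% intervals from edgeR, grouped by what they carry. SLC25A48, linked to choline import, is drawn with the amino acid carriers. The values lie on both sides of 0, from −1.87 for SLC25A48 to 2.66 for SLC25A27, and most intervals include 0.

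The carriers that exchange ADP for ATP link ATP made in the matrix to its use in the cytosol. SLC25A6 had 673, 773, 299, 826 and 763 CPM in obese dogs 1 to 5 and 530, 222 and 385 CPM in normal dogs 1 to 3. The 4 obese dogs other than dog 3 lay above every normal dog, and dog 3 lay between normal dogs 2 and 3. Fitted across all genes, its log2 fold change was 0.81 (standard error 0.39, adjusted p = 0.346, edgeR), and without obese dog 3 it was 0.97 (adjusted p = 0.0734, edgeR).

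SLC25A5, the second ADP/ATP carrier by level, had 8.85 to 37.4 CPM among obese dogs and 51.2, 10.4 and 46.1 CPM among normal dogs, which overlapped. SLC25A4, the form known from heart and muscle, had 10.6 ± 1.93 CPM (SD, n = 5) in the obese and 11.2 ± 2.27 CPM (SD, n = 3) in the normal dogs, and it overlaps a long non-coding RNA gene that had about as many counts (1163 against 1143). SLC25A31, known from the testis, was at 0.227 to 0.875 CPM among obese dogs and 0.984 to 2.10 CPM among normal dogs. The groups did not overlap there, but a library held only 2 to 19 counts, and the gene did not pass (adjusted p = 0.423, edgeR). SLC25A6 made up 93.9 ± 3.81% of the counts of the 4 ADP/ATP carriers in the obese (SD, n = 5) and 89.0 ± 2.33% in the normal dogs (SD, n = 3), and in no library was it below 86.7%.

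The ATP-Mg/phosphate carriers adjust the amount of adenine nucleotides in the matrix, and SLC25A23, SLC25A24 and SLC25A25 are regulated by calcium. SLC25A24 was the most abundant of them, with 42.1, 66.6, 59.7, 87.7 and 64.3 CPM among obese dogs and 57.8, 27.7 and 52.6 CPM among normal dogs. SLC25A25 had 23.4 to 40.8 CPM among obese dogs and 35.4 to 47.3 CPM among normal dogs. Neither passed, and their ratio is given with the other pairs. SLC25A23 had 3.74 to 10.4 against 2.55 to 5.62 CPM, and SLC25A41 had 5.35 to 11.1 against 3.98 to 8.58 CPM. SLC25A41 overlaps a non-coding gene (690 counts against 823), and the reads of the overlap cannot be told apart. SLC25A3, which imports the phosphate for ATP synthesis, had 36.3 ± 9.77 CPM among obese dogs (SD, n = 5) and 35.7 ± 14.2 CPM among normal dogs (SD, n = 3), a difference smaller than the spread between dogs.

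Of the carriers named for their likeness to uncoupling proteins, 3 were tested. SLC25A30 had 38.1, 37.4, 5.67, 17.9 and 19.5 CPM in obese dogs 1 to 5 and 11.5, 5.75 and 11.03 CPM in normal dogs 1 to 3. Obese dog 3 was the lowest of all 8 dogs, and the other obese dogs lay above every normal dog. Its log2 fold change was 1.32 (standard error 0.56, adjusted p = 0.298, edgeR), and without obese dog 3 it was 1.54 (adjusted p = 0.0378, edgeR). The dogs with the highest SLC25A30, obese dogs 1 and 2, also had the highest platelet marker sums, 1541 and 687 CPM, and the part of platelets in this result was not tested.

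SLC25A27, also called UCP4 and known from the brain, had 7.71, 4.30, 53.5, 5.30 and 4.67 CPM among obese dogs and 1.90, 2.21 and 3.00 CPM among normal dogs. Every obese dog lay above every normal dog, and obese dog 3 was far above the rest, with 472 counts (48.8 to 58.6 CPM, exact Poisson 95% interval for counting error only). On the log2 scale the fitted difference was 2.66 (standard error 0.97, adjusted p = 0.246, edgeR), and without obese dog 3 it was 1.17 (adjusted p = 0.1001, edgeR). SLC25A14 had 2.04 to 4.83 CPM among obese dogs and 2.53 to 5.996 CPM among normal dogs.

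The glutathione carriers SLC25A39 and SLC25A40 bring the main thiol antioxidant into mitochondria, and they differed in which dogs were high. SLC25A40 had 32.6, 36.6, 20.3, 36.2 and 33.4 CPM in obese dogs 1 to 5 and 11.2, 7.86 and 11.5 CPM in normal dogs 1 to 3. All obese dogs lay above all normal dogs, and obese dog 3 was the lowest of the obese dogs. The obese dogs averaged 31.8 ± 6.66 CPM (SD, n = 5) and the normal dogs 10.2 ± 2.03 CPM (SD, n = 3). Its fitted log2 difference was 1.64 (standard error 0.30, 95% interval 0.97 to 2.31), the smallest p of the family, and it missed the threshold (adjusted p = 0.0673, edgeR). Without obese dog 3 it was 1.73 (adjusted p = 0.00457, edgeR), DESeq2 gave 1.62 (adjusted p = 3.04e-05), and over all 17 alternatives it ran from 1.46 to 1.73 (adjusted p from 3.04e-05 to 0.490).

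In the reference annotation SLC25A40 overlaps RUNDC3B and neighbours DBF4, a regulator of DNA replication. RUNDC3B had 15.8 CPM among obese dogs and 8.44 CPM among normal dogs on average (log2 fold change 0.91, adjusted p = 0.377, edgeR) and 1343 counts in all against 2652 for SLC25A40. DBF4 had 46.2 and 43.4 CPM (log2 fold change 0.09, adjusted p = 0.889, edgeR). Whether the counting used strand is not stated, so reads from the overlap with RUNDC3B cannot be told apart. All 9 T cell markers had a positive log2 fold change, and their sums in the same libraries were 1124, 1148, 449, 935 and 1239 CPM among obese dogs and 374, 332 and 277 CPM among normal dogs. The 4 dogs with the highest T cell marker sums, obese dogs 1, 2, 4 and 5, were also the 4 highest for SLC25A40, SLC25A36, SLC25A30 and SLC25A6. These are 4 of the 43 carriers tested, and how many of all genes share these 4 highest dogs was not counted. The part of T cells in these values was not tested.

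SLC25A39 had 19.7, 17.9, 163, 14.7 and 18.8 CPM among obese dogs and 21.0, 22.8 and 17.5 CPM among normal dogs. Obese dog 3 stood far above every other dog, and the remaining 7 dogs overlapped within 14.7 to 22.8 CPM. The log2 fold change was 1.19 (adjusted p = 0.537, edgeR), and without obese dog 3 it turned to −0.23 (adjusted p = 0.578, edgeR). The erythroid markers ALAS2, the first enzyme of heme synthesis in red cells, and AHSP, a chaperone of alpha globin, had 569 and 284 CPM in that library and at most 12.2 and 5.22 CPM in the other dogs. Of the 12 erythroid markers, 6 were highest of all 8 dogs in obese dog 3, ALAS2 and AHSP among them, and 6 were not. Of the latter, SLC4A1, the anion exchanger of red cells, and CA1 had only 9 and 34 counts in all and were not tested. Their values therefore say little about that dog. GYPC, a red cell membrane glycophorin, had 22.7 CPM in obese dog 3 against 32.7 to 57.8 CPM in the other obese dogs. The part of erythroid cells in the SLC25A39 and SLC25A27 values was not tested.

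The mitoferrins SLC25A37 and SLC25A28 carry iron into mitochondria, and SLC25A37 is the form known from developing red cells. SLC25A37 had 43.4, 35.0, 200.2, 31.3 and 35.9 CPM in obese dogs 1 to 5 and 72.3, 164 and 114 CPM in normal dogs 1 to 3. Obese dogs 1, 2, 4 and 5 lay below every normal dog, and obese dog 3 lay above all of them. Its log2 fold change was −0.76 (standard error 0.64, adjusted p = 0.598, edgeR), and without obese dog 3 it was −1.71 (adjusted p = 0.00691, edgeR). Of the 10 neutrophil markers 4 had a positive and 6 a negative log2 fold change, and their sums in the same libraries were 1001, 247, 7191, 351 and 260 CPM among obese dogs and 1727, 7020 and 4466 CPM among normal dogs. The 4 dogs with the highest neutrophil marker sums were obese dog 3 and the normal dogs, and they were also the 4 highest for SLC25A37 and SLC25A29. The marker sums of monocytes and of dividing cells had the same 4 highest dogs. How many of all genes share these 4 highest dogs was not counted. The part of any of these cells in both carriers' values was not tested. SLC25A28 had 4.36 to 8.03 CPM among obese dogs and 5.55 to 9.52 CPM among normal dogs, which overlapped.

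**Figure D3:**
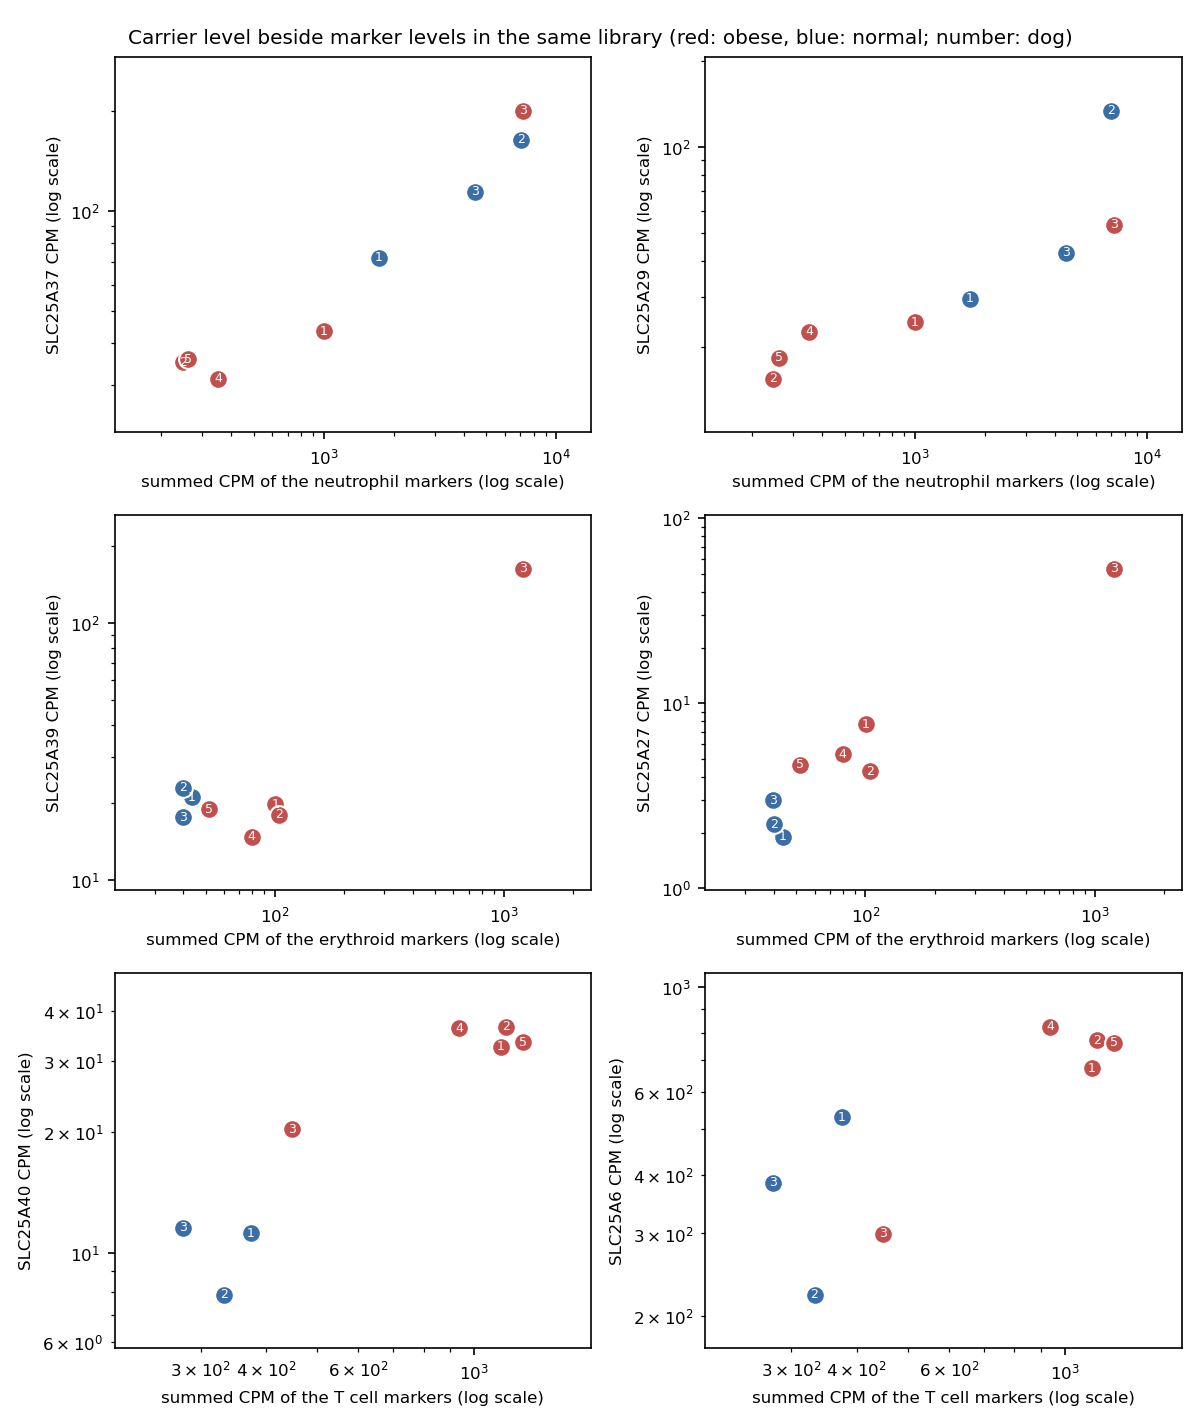
Level of 6 carriers (vertical, CPM, log scale) beside the summed CPM of neutrophil, erythroid or T cell markers of the same library (horizontal, log scale), 1 point per dog, obese in red and normal in blue, with the dog's number. Obese dog 3 sits with the normal dogs at the high end for SLC25A37 and SLC25A29, and alone at the high end for SLC25A39 and SLC25A27.

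The list of amino acid carriers used here held 7 members, of which 5 had enough counts to be tested. It includes SLC25A48, although that carrier has been linked to choline import. SLC25A29, a carrier of basic amino acids, had 24.5, 15.5, 53.5, 22.7 and 18.4 CPM among obese dogs and 29.6, 134 and 42.7 CPM among normal dogs. Normal dog 2 was the highest, and obese dog 3 lay within the normal range while the other obese dogs lay below it. On the log2 scale the fitted difference was −1.35 (standard error 0.53, adjusted p = 0.265, edgeR), −1.79 without obese dog 3 (adjusted p = 0.0410) and −0.46 without normal dog 2 (adjusted p = 0.827).

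SLC25A48, whose product has been linked to choline import, had 1.02, 0.264, 0.567, 0.781 and 0.408 CPM among obese dogs and 1.69, 1.55 and 3.38 CPM among normal dogs. The groups did not overlap, but the obese libraries held 4 to 14 counts each, and the Poisson intervals of obese dog 1 (0.467 to 1.94 CPM) and normal dog 2 (0.847 to 2.60 CPM) did. Its fitted log2 difference was −1.87 (standard error 0.60, adjusted p = 0.2004, edgeR). SLC25A48 overlaps IL9, which had 23 counts in all against 130. SLC25A44, a carrier of branched-chain amino acids, had 51.9, 32.4, 54.4, 72.3 and 64.0 CPM among obese dogs and 37.9, 38.2 and 29.6 CPM among normal dogs, with obese dog 2 inside the normal range. Its log2 fold change was 0.64 (standard error 0.29, adjusted p = 0.313, edgeR). SLC25A38, the glycine carrier of heme synthesis, had 31.8 CPM in obese dog 3, 18.8 to 25.3 CPM in the other obese dogs and 14.2 to 20.03 CPM among normal dogs. The ornithine carrier SLC25A15 averaged 6.90 ± 1.74 CPM in the 5 obese dogs (SD) and 7.73 ± 2.04 CPM in the 3 normal dogs (SD). SLC25A15 overlaps LOC606856, with 1790 counts against 772.

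The aspartate/glutamate carriers SLC25A12 and SLC25A13 belong to the malate-aspartate shuttle, which brings reducing power from the cytosol into mitochondria. SLC25A12 had 102 to 174 CPM among obese dogs and 199, 129 and 154 CPM among normal dogs, and SLC25A13 had 37.7 to 74.0 CPM among obese dogs and 89.7, 41.7 and 77.9 CPM among normal dogs. Both overlapped between the groups, with log2 fold changes of −0.17 and −0.31 (adjusted p = 0.780 and 0.679, edgeR). SLC25A12 overlaps HAT1 and LOC102152240, with 9396 and 5215 counts against 16483. SLC25A11, the oxoglutarate/malate carrier of the same shuttle, had 69.6 CPM in obese dog 3 and 32.6 to 45.3 CPM in the other 7 dogs. SLC25A11 overlaps RNF167, with 2938 counts against 4305. The glutamate carrier SLC25A22 had 4.99 to 10.3 CPM among obese dogs and 1.88 to 6.19 CPM among normal dogs (adjusted p = 0.389, edgeR).

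SLC25A20 carries acylcarnitines, the form in which long-chain fatty acids enter the matrix for oxidation. It had 20.3, 5.02, 11.9, 10.9 and 8.46 CPM among obese dogs and 20.7, 28.7 and 17.4 CPM among normal dogs. Obese dog 1, the Dachshund, lay between the normal dogs, and the other obese dogs lay below all of them. Fitted across all genes, its log2 fold change was −0.98 (standard error 0.41, adjusted p = 0.292, edgeR).

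The citrate carrier SLC25A1, which feeds fatty acid synthesis, had 5.22 to 10.7 CPM among obese dogs and 4.46 to 7.94 CPM among normal dogs. SLC25A10, SLC25A35 and SLC25A21 also overlapped, and no di- or tricarboxylate carrier had an adjusted p below 0.782 (edgeR).

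The pyrimidine nucleotide carriers supply the nucleotides used to copy and transcribe mitochondrial DNA, and SLC25A33 and SLC25A36 pointed in opposite directions. SLC25A33 had 69.1, 74.9, 54.9, 99.8 and 47.2 CPM among obese dogs and 81.8, 266 and 96.1 CPM among normal dogs. Normal dog 2 stood far above the others, and obese dog 4 lay within the normal range. The log2 fold change was −1.09 (standard error 0.40, adjusted p = 0.240, edgeR), and −0.39 without normal dog 2 (adjusted p = 0.764).

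SLC25A36 had 108, 131, 56.03, 160 and 104 CPM among obese dogs and 73.1, 54.8 and 69.3 CPM among normal dogs. The 4 obese dogs other than dog 3 lay above every normal dog. On the log2 scale the fitted difference was 0.77 (standard error 0.32, adjusted p = 0.293, edgeR), and 0.90 without obese dog 3 (adjusted p = 0.0421). Transcripts of the mitochondrial genome made up 1.79 ± 0.642% of all counts in the obese (SD, n = 5) and 5.36 ± 0.849% in the normal dogs (SD, n = 3). Whether this share is tied to the level of either carrier was not tested.

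**Figure D4:**
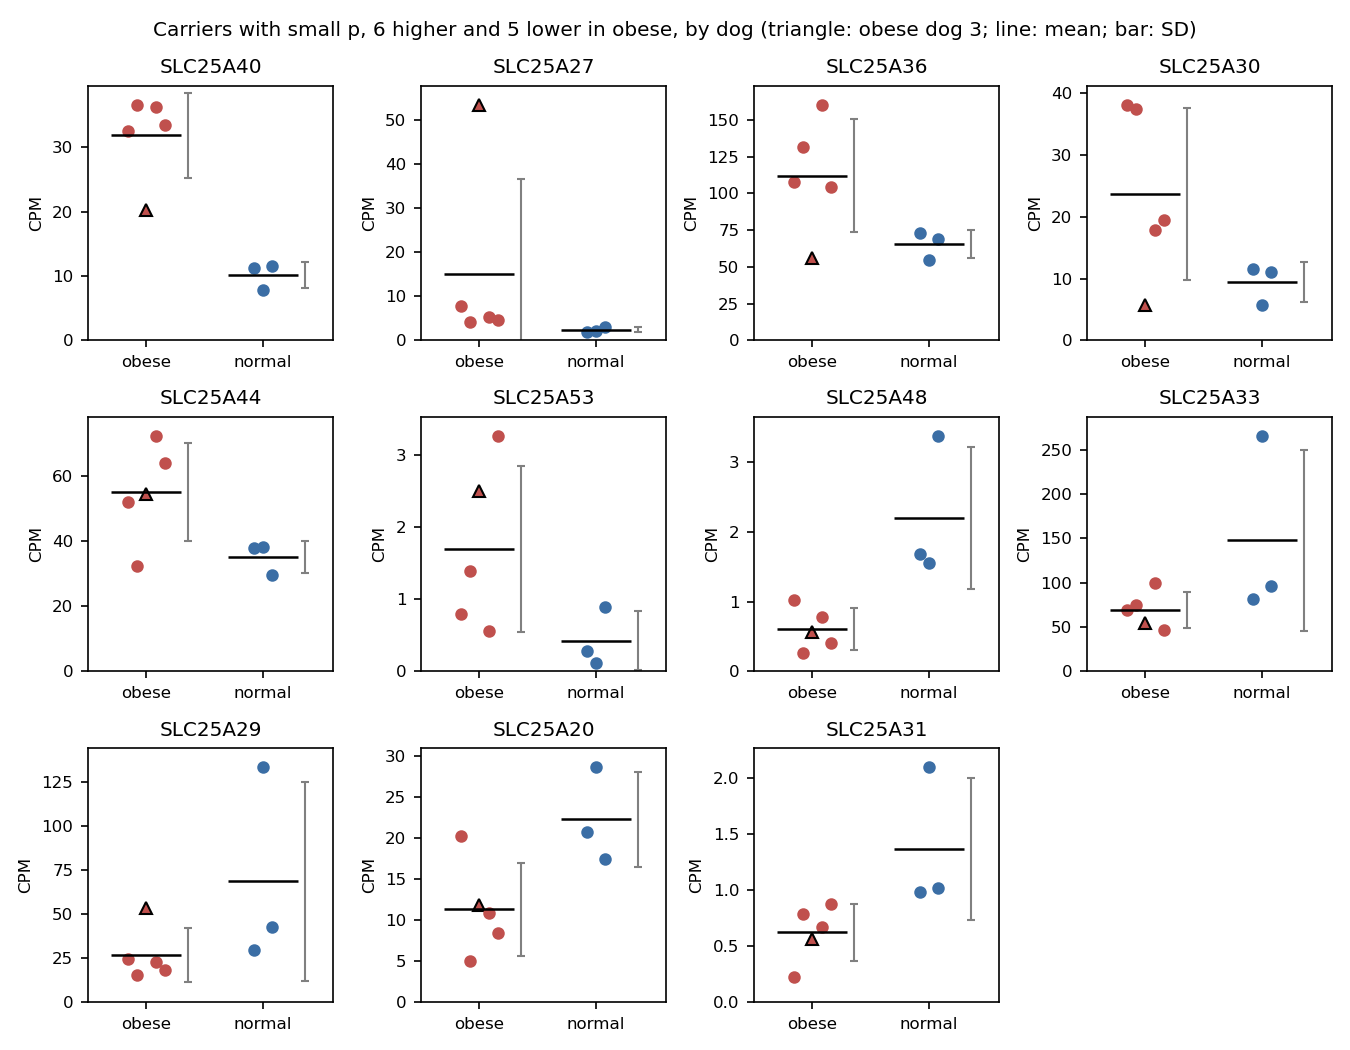
CPM of 6 carriers with small p among those higher and 5 among those lower in the obese dogs, 1 point per dog, with the mean as a line and the SD as a bar, drawn from 0 upwards. The groups do not overlap for SLC25A40, SLC25A27, SLC25A48 and SLC25A31, and obese dog 3 lies at 56.03 CPM of SLC25A36 and 5.67 CPM of SLC25A30, near the normal dogs.

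Among carriers of cofactors, SLC25A26, which imports S-adenosylmethionine, varied least among the obese dogs (26.8 to 32.0 CPM). It overlaps LRIG1, with 312 counts against 2849. SLC25A16, linked to coenzyme A, had 24.0 to 39.0 CPM among obese dogs and 33.4 to 35.5 CPM among normal dogs. The NAD carrier SLC25A51 had 14.7 to 37.0 against 23.3 to 32.0 CPM, the folate carrier SLC25A32 had 6.12 to 11.3 against 2.88 to 7.94 CPM, and SLC25A17, a carrier of peroxisomes, had 6.54 to 20.1 against 6.61 to 10.1 CPM. All 7 cofactor carriers tested overlapped between the groups. SLC25A46, an outer membrane member that acts in mitochondrial shape, had 13.3 to 33.5 CPM among obese dogs and 18.6 to 28.2 CPM among normal dogs. SLC25A53, with no known substrate, had 0.558 to 3.27 CPM among obese dogs and 0.111 to 0.893 CPM among normal dogs (log2 fold change 1.91, adjusted p = 0.315, edgeR).

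Ratios between related carriers within a library hardly depend on how libraries are scaled (0.5 is added to each CPM), and 8 pairs were compared. All 56 ways to divide the dogs were enumerated in a two-sided exact permutation test, whose smallest possible p is 0.0179. The log2 ratio of SLC25A33 to SLC25A36 was −0.66 ± 0.40 in the obese (SD, n = 5) and 0.97 ± 1.14 in the normal dogs (SD, n = 3), and every obese dog lay below every normal dog (exact permutation p = 0.0179, adjusted p = 0.143 over the 8 pairs). The highest obese value was −0.03 in dog 3 and the lowest normal value was 0.16 in dog 1. Normal dog 2 had the highest value, 2.27. With 1 dog left out the difference ran from −2.03 to −0.97 (adjusted p from 0.114 to 0.381, exact permutation). The pairs were chosen with earlier results of these data known. The ratio of SLC25A24 to SLC25A25 was 0.92 ± 0.30 in the obese and 0.15 ± 0.50 in the normal dogs, with obese dog 1 (0.54) below normal dog 1 (0.65), and the exact permutation p was 0.0357 (adjusted p = 0.143).

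The ratio of SLC25A40 to SLC25A39 separated the dogs except for one. It was 0.71, 1.009, −2.97, 1.27 and 0.81 in obese dogs 1 to 5 and −0.88, −1.48 and −0.58 in normal dogs 1 to 3, so SLC25A40 was the more abundant of the pair in 4 obese dogs and SLC25A39 in the other 4 dogs. The difference was 1.15 (exact permutation p = 0.321, adjusted p = 0.429), and 1.93 without obese dog 3 (adjusted p = 0.114). The ratios SLC25A5 to SLC25A6, SLC25A37 to SLC25A28 and SLC25A15 to SLC25A29 had differences of −1.11, −0.84 and 1.009 (adjusted p = 0.429 for each, exact permutation), and SLC25A4 to SLC25A5 and SLC25A12 to SLC25A13 had 0.22 and 0.11.

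**Figure D5:**
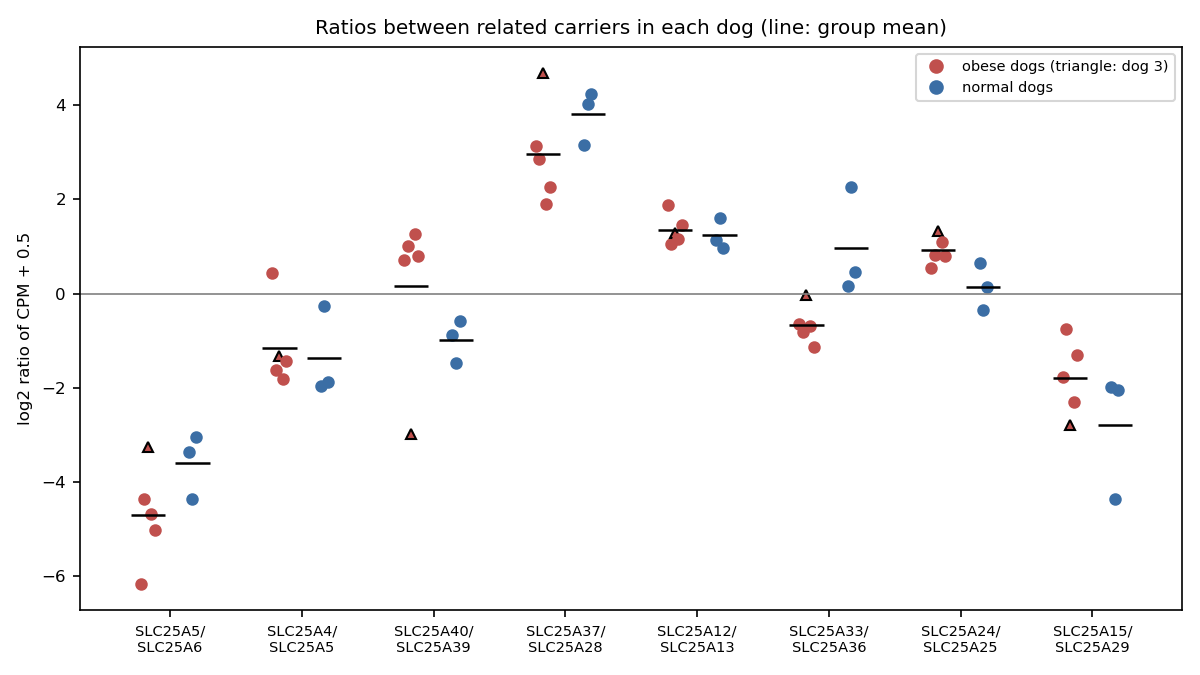
Log2 ratio of CPM + 0.5 between 8 pairs of related carriers, 1 point per dog, with group means as lines. For SLC25A33 over SLC25A36 all obese dogs are below 0 and all normal dogs above it, and for SLC25A40 over SLC25A39 obese dog 3, at −2.97, lies apart from the other obese dogs.

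Genes that work with the carriers were also counted, and none of them passed an adjusted p of 0.05 (edgeR). At an unadjusted p under 0.05 there were 4 higher and 1 lower of 25 partner enzymes, 1 lower of 15 other inner membrane carriers and channels, and 0 of 12 import proteins, 3 outer membrane channels, 9 regulators of mitochondrial biogenesis and 4 relatives without an SLC25A symbol. The 5 partner enzymes are 20% of their list, beside 15.7% of all genes at that p (9.01% higher and 6.73% lower). DESeq2 and limma-voom counts for these lists were not computed. The medians of these lists ran from 0.00 to 0.65 on the log2 scale beside 0.09 for all genes. Among the partner enzymes CRAT, which makes acetylcarnitine, had 14.8 ± 10.3 CPM among obese dogs (SD, n = 5) and 4.72 ± 1.24 CPM among normal dogs (SD, n = 3), with no overlap (log2 fold change 1.64, adjusted p = 0.197, edgeR). MDH2, the mitochondrial malate dehydrogenase, had 19.7 ± 21.5 against 3.46 ± 1.03 CPM, with obese dog 1 at 55.2 CPM. GCLC, of glutathione synthesis, had 46.9 to 69.3 CPM among obese dogs and 56.3, 292 and 57.2 CPM among normal dogs, where only normal dog 2 lay above the obese dogs.

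MTCH1, a carrier relative of the outer membrane, had 85.1 ± 17.8 CPM among obese dogs (SD, n = 5) and 59.0 ± 9.12 CPM among normal dogs (SD, n = 3). UCP2, an uncoupling protein of immune cells, had 1.43 ± 1.56 against 0.834 ± 0.781 CPM. It had 157 counts in all, with 0 in obese dogs 1 and 3 and in normal dog 2. The import proteins with the smallest p, TIMM13 and TIMM10B, had log2 fold changes of 0.53 and 0.51, and the outer membrane channel VDAC1 had 36.3 ± 6.15 against 36.3 ± 11.7 CPM. PPARGC1A, a coactivator of mitochondrial biogenesis, had 9.001 ± 3.71 against 17.1 ± 10.1 CPM (adjusted p = 0.380, edgeR).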

How the data were processed

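Peripheral blood mononuclear cell RNA of 5 obese and 3 normal dogs was made into 3′ tag libraries (Lexogen QuantSeq, 500 ng of total RNA), per the labels' protocols. The authors deposited 1 table per dog of whole-number counts per gene symbol, not normalized. Bowtie2 and bedtools are named in the submitters' processing notes. Versions, build, gene models and use of strand: not given in the sources used here. Groups and dog numbers come from the labels, which name each dog but not the day of sampling, so p-values measure only the spread between these dogs. Carriers were tested within the whole table in R 4.3.3 with edgeR 4.0.16: filterByExpr by group (20632 genes), TMM scaling, glmQLFit and glmQLFTest with robust estimation, with Benjamini-Hochberg adjusted p under 0.05 over those genes taken as called. Standard errors come from the size of the log2 fold change over the root of the F statistic. CPM uses the TMM-scaled library sizes. Ratios used log2 of CPM + 0.5. Poisson intervals (95%) and limits at a count of 0 (3 counts) cover counting error only, since reads without molecular identifiers are not independent molecules. Depth was 10264202 to 14910982 counts per library.

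Named carriers are the 8 with the smallest p in each direction, the most abundant of each transport role and both genes of each pair; of the partner lists, up to 4 genes with the smallest p are named by rule, and other carriers are given by their range. Results for 2 genes that the rule would name are not reported here. The members, roles, pairs and lists were chosen with earlier results of these data known. In a reference gene table (assembly UU_Cfam_GSD_1.0) 46 of the 47 symbols were found; it was used for overlaps and neighbours only, and 10 members overlap a gene with at least 10% of their own counts. All pairs of libraries differed by more than sampling noise (lowest chi-square per degree of freedom 40.5). Tested on simulated data for this comparison (20632 genes), edgeR recovered part of the changed genes: the shares recovered were 2% at 2-fold, 24% at 4-fold, 64% at 8-fold and 82% at 16-fold. Alternatives were RLE and upper-quartile factors, DESeq2 1.42.0, limma 3.58.1 voom with quality weights, no filter and a stricter filter, no robust estimation, removal of the most abundant gene and 3 globin genes, leaving out each dog, a block by dog number, and pseudocounts of 0.1 and 2 for the ratios.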

Additional observations from a re-analysis of the deposited data

Results flagged for a closer look

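Among the 5 obese dogs, 52 sets of values were examined for a dog far from its nearest neighbour. These were 43 carriers, 8 ratios and the family sum. Chance picks about 1 in 20 if values are normally distributed, and the ratios reuse the carriers' values. How many of all genes are picked this way was not counted, so the number below is not shown to be particular to the carriers. The whole library of obese dog 3 differed from the other obese dogs by a chi-square per degree of freedom of 194 to 319. Pairs among those dogs had 62.2 to 154. There were 8 sets with a dog picked, and in 7 of them it was obese dog 3. In that dog SLC25A39 had 163 CPM (next highest 19.7), SLC25A37 had 200.2 CPM (next 43.4), SLC25A27 had 53.5 CPM (next 7.71), SLC25A29 had 53.5 CPM (next 24.5) and SLC25A11 had 69.6 CPM (next 42.2). SLC25A40 was lowest there, at 20.3 CPM (next 32.6), and the log2 ratio of SLC25A40 to SLC25A39 was −2.97 (next 0.71). The eighth was the log2 ratio of SLC25A4 to SLC25A5 in obese dog 1, at 0.45 (next −1.32), where SLC25A5 had 8.85 CPM.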

How the results depend on the processing

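Depth limits the carriers at or below about 1 CPM, where a library holds under 20 counts. The counts of carriers past the threshold, 0 higher and 0 lower, were 1 and 0 with DESeq2 and 5 and 4 with limma-voom with quality weights, and 0 and 0 with the other scalings, filters, no robust estimation, removal of abundant genes and the block. Over the fits that left out 1 dog they ran from 0 to 3 higher and from 0 to 2 lower, the highest values without obese dog 3. For all genes, 10 were higher and 38 lower, with 599 and 428 by DESeq2, 1881 and 2043 by limma-voom, 5 higher without robust estimation, and 0 to 661 higher and 2 to 1023 lower with 1 dog left out. The median of the carriers ran from −0.034 to 0.24 with 1 dog left out, the highest without normal dog 1, and the median of all genes was 0.09 in the fit reported and −0.03 with upper-quartile factors, where the median of the carriers was −0.07. The cause of these shifts was not tested.

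Named carriers with values near 0 changed sign: SLC25A28 was 0.035 with limma-voom, and SLC25A3 was −0.091 with upper-quartile factors and −0.016 with the stricter filter. With 1 dog left out, the values ran from −0.16 to 0.41 for SLC25A3, −0.33 to 0.029 for SLC25A12 and −0.27 to 0.037 for SLC25A4. They ran from −0.29 to 0.030 for SLC25A46, −0.14 to 0.24 for SLC25A11 and −0.34 to 0.039 for SLC25A15. SLC25A39 was not near 0 in the fit reported (1.19), and its values ran from −0.23, without obese dog 3, to 1.42. The ratio differences ran from −0.18 to 0.77 for SLC25A4 to SLC25A5 and from −0.020 to 0.30 for SLC25A12 to SLC25A13.

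The dog numbers in the labels name different dogs, and same-numbered dogs did not deviate together (r of −0.02, −0.23 and 0.01 over genes). None of the 3 obese dogs with a partner deviated most like the normal dog of its own number. Obese dogs 4 and 5 share a number with no normal dog, so with the replicate block they add nothing to the group difference. That difference rests on 3 obese and 3 normal dogs there. In that fit 0 carriers passed and 0 genes were higher and 0 lower, with 1634 genes at an unadjusted p under 0.05. SLC25A15 was 0.018 and SLC25A4 0.12. SLC25A40 was not called, in a fit with fewer dogs behind the difference than the fit reported.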
